A study of Mus musculus with 15 samples.

Results

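EC-SP and EC-MP are endothelial cells from the mouse liver that were sorted into a fraction labelled SP and a fraction labelled MP. The labels spell out neither name, and side population and main population are the meanings assumed here. The arrays were chosen by their titles, SP or MP with 8w, read as an age of 8 weeks. This gave 6 of the 15 arrays in the series, 3 for each population, and every gene measured on them was open to description. The other 9 arrays hold liver endothelial cells sorted with antibodies as CD157+CD200+, CD157-CD200+ and CD157-CD200-, and they enter only the last comparison. Strain, genotype, sex and the sorting gates are not given in the sources used here, and neither is any treatment. The series text calls the 3 samples of a population independent without saying whether each came from its own animal. The p-values rest on the spread among these 3 and may therefore reflect technical variation alone. Total RNA was amplified as cDNA and labelled with the dye Cy3 before hybridisation to 1-colour Agilent arrays.

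A side population is the small fraction of cells that pumps a DNA-binding dye out through ABC transporters, while the main population keeps the dye. In bone marrow and other tissues this property has been used to enrich stem and progenitor cells. In the liver, most endothelial cells line the sinusoids, leaky capillaries that clear waste from the blood, and a minority line the portal vessels, the central veins and the arteries. Genes that mark the vessel type are left aside here, and the account turns to uptake, metabolism, signalling, immune regulation and the cell surface.

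Between 59.6% and 69.4% of the spots of the 6 arrays were well above background, and no spot was saturated. Each level below is the log2 of a gene's signal minus the log2 of the 75th percentile of its array, so that 0 is that percentile and a difference of 1 is a 2-fold difference. Levels of different genes come from different probes and cannot be compared with each other. Differences are EC-SP minus EC-MP with the standard error (SE) of the limma fit, n = 3 arrays per group, and genes were called where the p adjusted by Benjamini-Hochberg lay under 0.05. Of 23969 features, 3962 were called (16.5%), 2187 higher (9.12%) and 1775 lower (7.41%), and in 34.8% the groups did not overlap. Among the 14217 features with a gene symbol, 1592 were called higher in EC-SP (11.2%) and 1178 lower (8.29%), and these shares are the background for every list below. The median log2 difference of the genes was -0.01, the median absolute difference was 0.40, and 185 called genes were over 8-fold higher and 97 over 8-fold lower. Of the called features 55.2% were higher in EC-SP, and 39.9% when the authors' deposited series table was used as given, in which the median difference of all features was -0.16. The count of lower features, 1775, was 1162 without EC-MP replicate 2.

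The genes that mark the sort were higher in EC-SP. Bst1, which encodes CD157, was at 2.70, 2.83 and 2.85 on the EC-SP arrays and at -1.14, -1.69 and -1.82 on the EC-MP arrays, in replicate order. Abcg2, a transporter that exports the side population dye, was at 4.59, 4.56 and 4.54 against 0.85, 1.18 and 0.79. Abcb1a, which encodes P-glycoprotein, was at 3.78, 3.77 and 4.30 against -1.20, -0.40 and 0.01. Cd200 was at 4.02, 3.99 and 4.32 against 0.38, 0.62 and 1.15. None of these genes overlapped between the groups, as in 38% of all genes, and all 4 were called, as were 19.5% of all genes. The endothelial junction gene Cdh5 was at similar levels, 4.49, 4.53 and 4.95 in EC-SP and 4.38, 4.79 and 4.49 in EC-MP (difference 0.10 ± 0.24, adjusted p = 0.84). Pecam1, which encodes CD31, was at 5.71, 5.46 and 6.11 against 4.74, 4.79 and 5.35, without overlap (0.80 ± 0.27). It was not called (adjusted p = 0.077), but it was with the replicate block (0.025), with normexp (0.032) and without EC-MP replicate 3 (0.049).

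Markers of other cell types were read as well, because sorted cells can carry RNA of their neighbours. Of 12 general endothelial genes, Emcn was called higher and Eng and Tek lower. Of these, Eng alone stayed called whichever array was left out: Emcn was lost without any single array other than EC-SP replicate 2, and Tek without any EC-SP array or EC-MP replicate 2 or 3. Of 10 tested bile duct genes, 8 were called higher in EC-SP, and 7 of them stayed called whichever array was left out. They include Krt19 (2.62 ± 0.29, adjusted p = 0.00051), Spp1 (2.65 ± 0.31, adjusted p = 0.0007), Epcam (1.84 ± 0.24, adjusted p = 0.0011) and Sox9 (2.76 ± 0.52, adjusted p = 0.0072), while Cftr was not well above background on all arrays of either group. The summed signal of the 10 genes, in multiples of the 75th percentile, was 10.9 to 14.3 in EC-SP and 2.57 to 3.41 in EC-MP. Krt8 and Krt18, keratins of duct cells, hepatocytes and mesothelium, were also called higher. Gpm6a, the other tested gene of the mesothelium list, was called lower (-1.29 ± 0.22, adjusted p = 0.0042). The summed signal of these 3 genes was 13.6 to 15.2 in EC-SP and 13.6 to 17.7 in EC-MP. The mesothelial genes Msln, Wt1, Upk3b, Upk1b and Lrrn4 were not well above background on all arrays of either group.

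Of 7 tested Kupffer cell genes, C1qc, C1qa and Cd68 were called lower in EC-SP, with a summed signal of 2.43 to 2.87 in EC-SP and 4.07 to 11.8 in EC-MP. The EC-MP sums vary with Marco, which was at 2.77, -1.80 and 2.57 and was not called (adjusted p = 0.081). With the replicate number as a block 5 were called, and without EC-SP replicate 1, 2 or 3 or EC-MP replicate 1 only 1 was. Clec4f, Vsig4 and Timd4, which define these macrophages, were not well above background on all arrays of either group. Among 8 tested leukocyte genes limma called 0, with 0 at an unadjusted p under 0.05, and it called 1 higher with the replicate block or without EC-MP replicate 1. Their summed signal was 350 to 464 in EC-SP and 342 to 453 in EC-MP, the highest of the cell type lists in both groups. Sums of different lists rest on different probes, so this rank does not measure the share of leukocyte RNA. The genes that make up most of this sum are not given here. Ms4a1, Cd3d, Cd3g, Cd8a, Cd79b, Ncr1 and S100a8 were not well above background on all arrays of either group. Of 10 tested hepatocyte genes, Ttr, Alb and Cyp2e1 were called higher and Fgb and Apoa1 lower, with sums of 10.6 to 12.3 against 7.79 to 8.71, and the count of lower genes was 1 without EC-MP replicate 1, EC-MP replicate 2 or EC-SP replicate 3. Of 8 tested stellate cell genes, Rgs5 was called higher and Lrat and Reln lower, with sums of 8.5 to 13 against 3.14 to 3.52. Rgs5, at 3.37, 2.53 and 2.66 in EC-SP and -0.87, -0.41 and -1.42 in EC-MP, makes up most of the EC-SP sum, and the median difference of the list was -0.23. A further stellate cell gene was called higher without EC-MP replicate 2. Notch3 alone of 9 smooth muscle genes was called higher, with sums of 5.48 to 8.1 against 5.82 to 6.6. For 8 portal fibroblast genes, of which 2 were called higher and 1 lower, the sums were 7.55 to 11 against 17.9 to 22.4, and for 6 platelet and red cell genes, of which 2 were called lower, 6.06 to 6.2 against 6.84 to 9.07. The portal fibroblast sum in EC-MP is mostly Thy1, while the median difference of that list was 0.56, in the other direction. The higher portal fibroblast calls were 4 with the replicate block and 1 without any single array other than EC-MP replicate 3, and the platelet and red cell calls were 1 without EC-SP replicate 1, EC-SP replicate 2 or EC-MP replicate 2. The part that any of these cells plays in the results below was not tested. In sorted bulk RNA, fewer cells of a type and less RNA per cell cannot be told apart.

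The 12 named genes with the largest excess in EC-SP had no common role. Cd109, a surface protein that binds TGF-beta, was at 0.61, 0.89 and 1.31 in EC-SP and not well above background on any EC-MP array, a difference of at least 28.3-fold (limma adjusted p = 7.7e-05). Dusp26, a phosphatase of MAP kinases, was at 0.84, 0.74 and 1.34 which is at least 28.1-fold above EC-MP (adjusted p = 0.0001). Mfsd2a, the lysophospholipid carrier that restrains vesicle transport in brain endothelium, was at 0.61, -0.17 and 0.76 and at least 19.6-fold higher (adjusted p = 8.6e-05). Each of these genes was well above background on all EC-SP arrays and on no EC-MP array. Akr1c14, a steroid-reducing enzyme, was at least 13.7-fold higher, the transcription factor Dach1, known for arterial growth, at least 9.67-fold, and both the substance P receptor Tacr1 and the oocyte growth factor Bmp15 at least 10.2-fold.

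Spock2 and Rgcc were measured on all 6 arrays. Spock2, a proteoglycan of the testican family, was at 5.79, 5.73 and 5.72 in EC-SP and 0.16, 0.17 and 0.95 in EC-MP, a difference of 5.32 ± 0.26 (adjusted p = 1.9e-05). Rgcc, a complement-induced cell cycle regulator, was at 2.59, 2.27 and 2.53 against -3.35, -2.42 and -2.60 (5.25 ± 0.28, adjusted p = 2.4e-05). The EC-SP values of Spock2 lay within 0.1 of each other, and no array of either gene overlapped the other group. Dkk2, a secreted modulator of WNT signalling (5.60 ± 0.67), the cyclic AMP sensor Rapgef4 (5.44 ± 0.54) and Fam181b (5.37 ± 0.51) were each well above background on 1 of 3 EC-MP arrays.

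**Figure D1:**
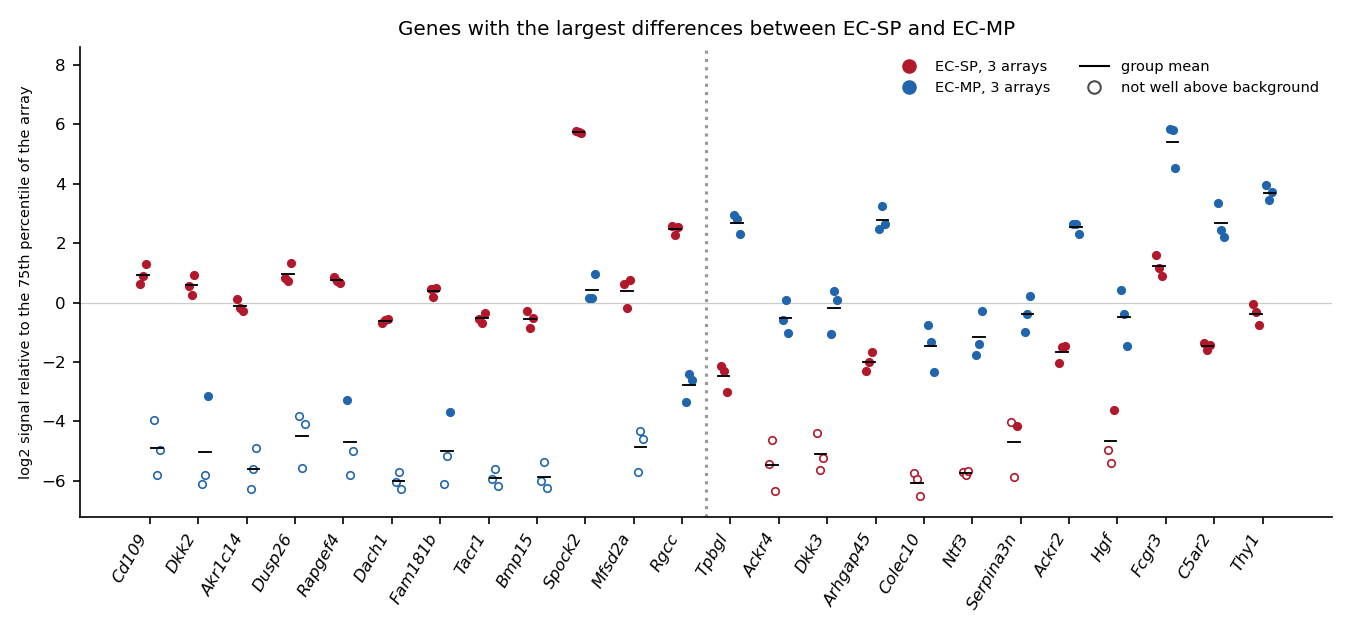
Levels of the 24 named genes with the largest differences on each array, as log2 signal relative to the 75th percentile of the array (vertical axis); red points are EC-SP arrays, blue points EC-MP arrays, black lines group means, and open points were not well above background. The 12 genes left of the dotted line are higher in EC-SP and the 12 to its right lower. In none do the groups overlap, as in 38% of all genes, and this follows in part from the choice of large differences.

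The 12 named genes with the largest deficit in EC-SP also differed in role. Fcgr3, a receptor for the constant part of IgG, was at 1.61, 1.16 and 0.90 in EC-SP and 5.85, 5.81 and 4.52 in EC-MP (-4.17 ± 0.38, adjusted p = 0.00021). Ackr2, which traps inflammatory chemokines without signalling, was at -2.03, -1.48 and -1.45 against 2.66, 2.64 and 2.32 (-4.19 ± 0.25, adjusted p = 2.7e-05). C5ar2, a receptor of the complement fragment C5a, was at -1.37, -1.59 and -1.43 against 3.36, 2.45 and 2.21 (-4.14 ± 0.31, adjusted p = 8.2e-05). Ackr4, which traps homeostatic chemokines, was at least 10.2-fold lower (adjusted p = 0.00019). Thy1, a small surface glycoprotein of T cells, fibroblasts and some endothelium, was at -0.06, -0.33 and -0.74 against 3.94, 3.44 and 3.71 (-4.07 ± 0.26, adjusted p = 3.6e-05).

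Hgf, the hepatocyte growth factor, was at 0.42, -0.39 and -1.45 in EC-MP and was well above background on 1 of 3 EC-SP arrays (-4.18 ± 0.55, adjusted p = 0.0012). Ntf3, a neurotrophin, lay at least 6.52-fold below EC-MP (adjusted p = 9.4e-05), and Colec10, a liver collectin that recognises sugars on microbes, at least 5.2-fold lower (adjusted p = 0.00016). Dkk3 was at least 12.6-fold lower (adjusted p = 0.00018), the opposite direction to its relative Dkk2. Tpbgl (-5.17 ± 0.30), the GTPase regulator Arhgap45 (-4.76 ± 0.28) and the protease inhibitor Serpina3n (-4.29 ± 0.51, 1 of 3 EC-SP arrays above background) complete the list.

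The 36 lists of functions held 690 tested genes, of which 147 had a called excess in EC-SP and 70 a called deficit. The lists were chosen with earlier results of these data known, so their counts describe these arrays and are read only against the background of 11.2% higher and 8.29% lower.

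**Figure D2:**
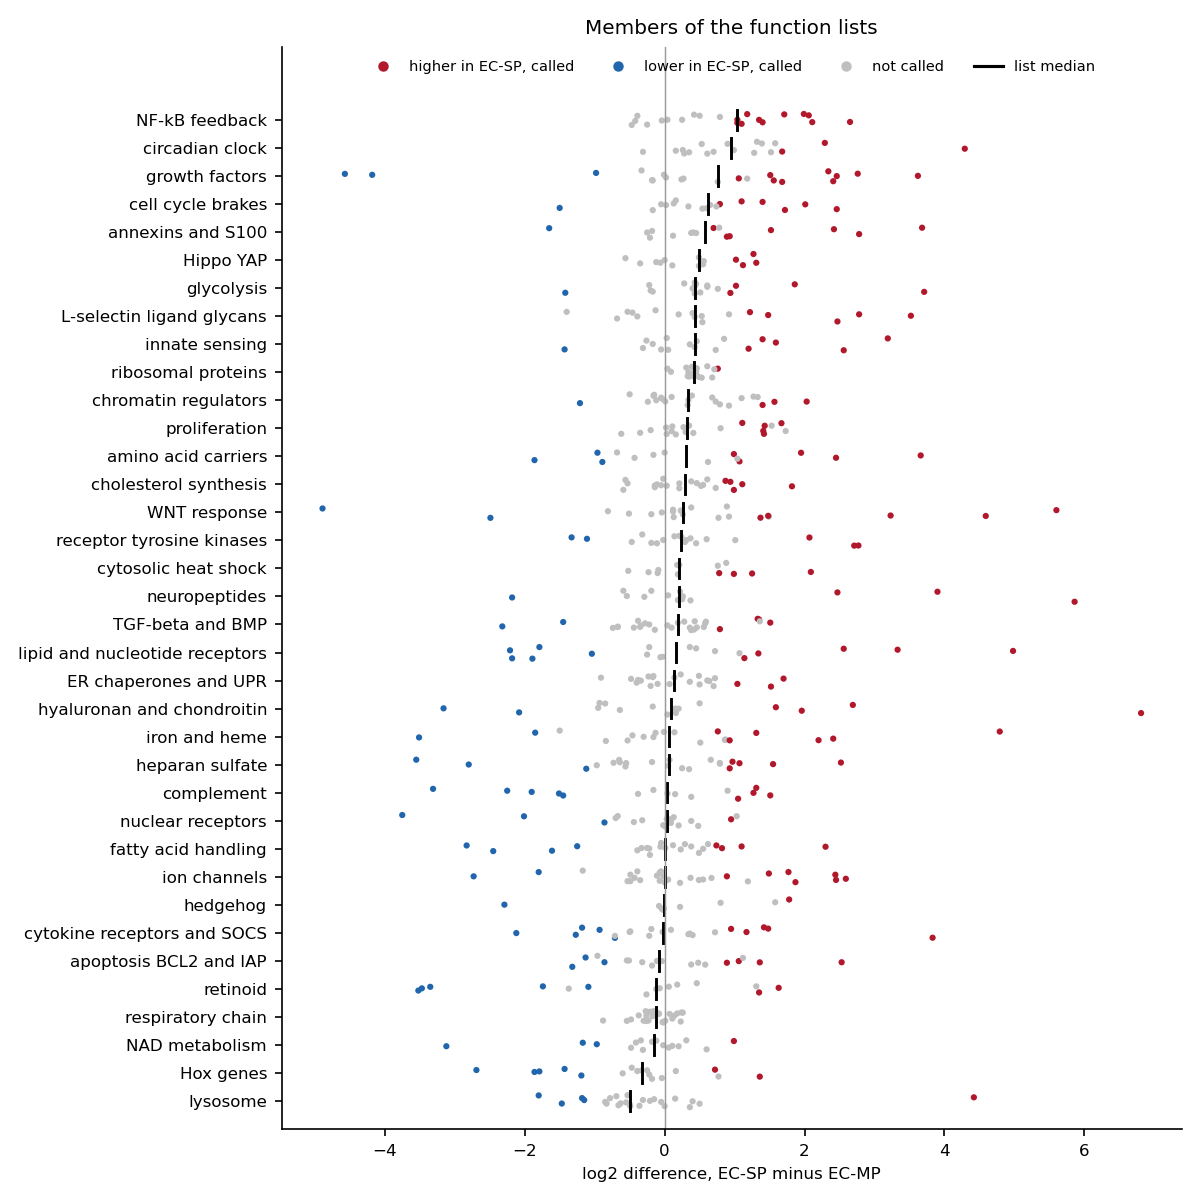
Each point is a tested gene of a function list, placed by its log2 difference between EC-SP and EC-MP (horizontal axis); red genes were called higher in EC-SP, blue genes lower and grey genes were not called, and black bars mark the list medians. The NF-kB list has the highest median, 1.04, and the lysosome list the lowest, -0.50.

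The glucose transporter of the glycolysis list had the largest difference among its called genes. Slc2a1, the glucose transporter GLUT1, was at 3.94, 3.93 and 4.14 in EC-SP and 0.14, 0.29 and 0.45 in EC-MP, which is 13.1-fold (3.71 ± 0.21, adjusted p = 2.7e-05). Pfkfb3, the enzyme that makes the activator of phosphofructokinase and drives glycolysis in sprouting endothelium, was at 4.0, 3.94 and 4.29 against 1.91, 2.59 and 2.17 (1.86 ± 0.25, adjusted p = 0.0014). Ldhb, the lactate dehydrogenase subunit that favours lactate use, was lower (-1.42 ± 0.24, adjusted p = 0.0046). Of 19 tested genes of the glycolysis list, 4 were called higher and 1 lower, and without EC-SP replicate 1, 2 or 3 or EC-MP replicate 2 only 2 were called higher. In the respiratory chain limma called 0 of 24 genes (2 at an unadjusted p under 0.05), with a median of -0.13. The replicate block called 1 gene lower, as did normexp, quantile normalization, the authors' series table and the fit without EC-SP replicate 1. In each it was Ndufb8, a subunit of complex I (-0.88 ± 0.30 with adjusted p = 0.079 without the block and 0.022 with it). Of 24 ribosomal protein genes 1 was called, Rpl3, and it was not called when any array was left out.

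Amino acid carriers were split. Slc7a1, which carries arginine and lysine, was at 3.04, 2.94 and 3.17 in EC-SP and 0.80, 0.10 and 0.90 in EC-MP (2.45 ± 0.26, adjusted p = 0.00047). Slc38a1, a glutamine carrier, was higher by 3.66 ± 0.41 (adjusted p = 0.00058), with 1 of 3 EC-MP arrays above background, and the related Slc38a2 by 1.07 ± 0.21 (adjusted p = 0.0091). Slc6a6, the taurine carrier, was higher by 1.95 ± 0.30 (adjusted p = 0.0026). Slc43a2, a carrier of branched and aromatic amino acids, was lower by a log2 difference of -1.86 ± 0.33 (adjusted p = 0.0054). In all, 5 of 14 tested carriers were called higher and 3 lower, and 1 lower without EC-MP replicate 2 or 3.

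Iron and heme genes differed in both directions. Tfrc, the transferrin receptor that brings iron into cells, was higher by 2.41 ± 0.30 (adjusted p = 0.00089), and Slc39a14, a zinc and iron importer, by 2.20 ± 0.27 (adjusted p = 0.00086, 2 of 3 EC-MP arrays above background). Flvcr2, a heme and choline transporter of brain endothelium, was at -0.41, 0.35 and 0.31 in EC-SP and well above background on 1 of 3 EC-MP arrays (4.79 ± 0.55, adjusted p = 0.00066). Slc40a1, ferroportin, the iron exporter, was at -2.46, -2.53 and -2.10 against 1.39, 1.71 and 0.36 (-3.51 ± 0.35, adjusted p = 0.00031). Slc39a8, a zinc and manganese importer, was lower as well (-1.85 ± 0.24, adjusted p = 0.0012). Of 20 tested genes, 6 were called higher and 2 lower, and 4 and 2 of these stayed called whichever array was left out.

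Genes of fatty acid uptake and storage were called in both directions, and the lower calls were the more stable. Gpihbp1, which holds lipoprotein lipase on the capillary wall, was at 3.43, 2.80 and 2.89 in EC-SP and 6.34, 5.76 and 5.52 in EC-MP, 7.13-fold lower (adjusted p = 0.00035). Fabp5, a fatty acid binding protein, was lower by a log2 difference of -2.45 ± 0.26 (adjusted p = 0.00047), Plin2, which coats lipid droplets, by -1.61 ± 0.21 (adjusted p = 0.0011), and Fabp4 by -1.25 ± 0.27 (adjusted p = 0.014). These 4 lower calls among 23 tested genes held whichever array was left out. The 4 higher calls did not: at most 2 remained without EC-MP replicate 3, at most 1 without each of the other arrays, and the highest of them, Dgat2, was well above background on 1 of 3 EC-MP arrays.

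Of 15 tested retinoid genes, which act on vitamin A, 5 were called lower in EC-SP, 2 higher and 8 not at all. Dhrs3, which reduces retinaldehyde back to retinol, was at 2.28, 1.96 and 1.61 in EC-SP and 5.40, 5.48 and 5.38 in EC-MP (-3.47 ± 0.24, adjusted p = 5.4e-05). Lrat, which stores retinol as esters and is also a stellate cell marker, was not well above background in EC-SP and at least 3.75-fold lower (adjusted p = 4.9e-05). Among the receptors, Rarb (-3.35 ± 0.25, adjusted p = 7.9e-05) and Rarg (-1.09 ± 0.22, adjusted p = 0.01) were lower and Rara was higher (1.63 ± 0.26, adjusted p = 0.0032). The 3 tested probes of Rarb differed by -3.35 to -0.53. Cyp26b1, which degrades retinoic acid, was lower (-1.74 ± 0.21, adjusted p = 0.00087), and Rdh10, which makes retinaldehyde, was higher (1.35 ± 0.22, adjusted p = 0.0038). All 7 calls held whichever array was left out.

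**Figure D3:**
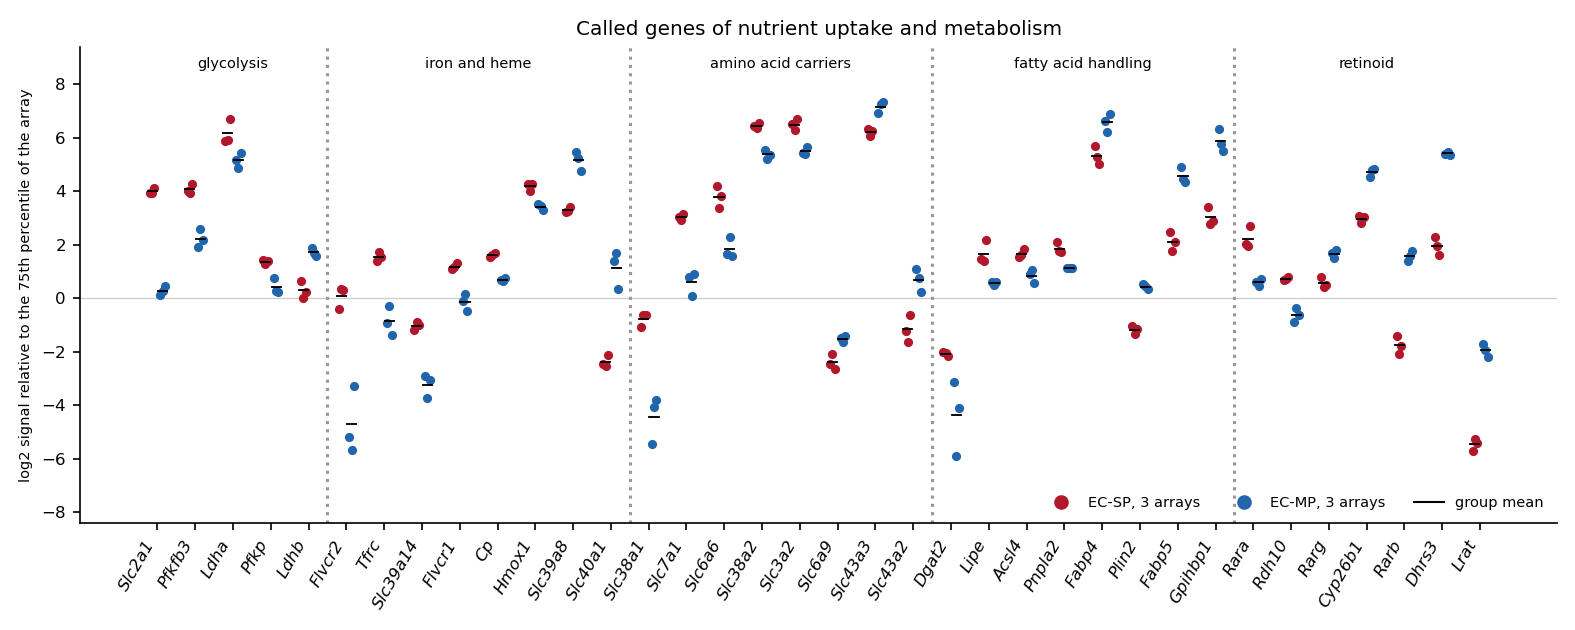
Levels of the called genes of 5 lists of nutrient uptake and metabolism on each array, as log2 signal relative to the 75th percentile of the array (vertical axis); red points are EC-SP arrays, blue points EC-MP arrays and black lines group means. Slc2a1 and Tfrc lie higher in EC-SP, and Slc40a1, Gpihbp1, Dhrs3 and Rarb higher in EC-MP. Their groups do not overlap, as in 38% of all genes, and this follows in part from the choice of called genes.

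Lysosomal enzymes were lower where they were called, except for 1 gene. Man2b1, a mannosidase (-1.80 ± 0.24, adjusted p = 0.0014), Lgmn, legumain (-1.47 ± 0.29, adjusted p = 0.0085), and Ctsd, cathepsin D (-1.15 ± 0.23, adjusted p = 0.0091), were lower in EC-SP. Ctsc, the cathepsin that activates granule proteases, was at -0.34, -0.34 and -0.35 in EC-SP and not well above background in EC-MP, at least 10.9-fold higher (adjusted p = 0.00029). The 5 calls among 25 tested genes held whichever array was left out, and the list median was -0.50 against -0.01 for all genes. Quantile normalization called 7 of the genes lower.

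Secreted growth factors were among the lists with the most calls. Of 21 tested, 9 were called higher (background 11.2%) and 3 lower, with a median of 0.76. Of the higher calls 6 held whichever array was left out, and 5 were made without the filter on dim probes. Hbegf, a heparin-binding ligand of the EGF receptor, was at 6.62, 6.57 and 6.86 in EC-SP and 4.32, 4.38 and 4.34 in EC-MP (2.34 ± 0.21, adjusted p = 0.00019). Vegfc, which drives lymphatic growth, was higher by 2.76 ± 0.35 (adjusted p = 0.00094), Pdgfa by 2.46 ± 0.27 (adjusted p = 0.00052), and Pdgfb, which recruits mural cells, by 1.51 ± 0.32 (adjusted p = 0.013). Kitl, the ligand of the stem cell receptor KIT, was higher by 1.56 ± 0.24 (adjusted p = 0.0027). Csf3, the granulocyte growth factor, was at -2.13, -1.52 and -1.59 in EC-SP and at least 4.42-fold higher (adjusted p = 0.00037). Hgf, Ntf3 and Vegfb were the lower ones.

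The receptor of Hgf moved the other way. Met was at -0.75, -0.28 and -0.07 in EC-SP and -3.05, -2.68 and -3.51 in EC-MP, higher in EC-SP by 2.71 ± 0.29 (adjusted p = 0.00044) where its ligand was lower. Insr, the insulin receptor, was at 5.23, 5.25 and 5.22 against 3.23, 3.18 and 3.07 (2.07 ± 0.20, adjusted p = 0.00028). Both groups were tight for Insr, with SDs of 0.02 and 0.08.

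Within the WNT list the calls went to inhibitors, targets and a receptor. Lef1, a transcription factor of the pathway, was at -0.05, -0.23 and 0.25 in EC-SP and at least 14.7-fold higher than in EC-MP, where it was not above background (adjusted p = 3.2e-05). Sfrp1, a secreted WNT antagonist, was higher by 3.23 ± 0.40 (adjusted p = 0.00087, 1 of 3 EC-MP arrays above background), and the receptor Fzd5 by 1.48 ± 0.29 (adjusted p = 0.0086). Nkd1, an intracellular inhibitor, was lower (-2.49 ± 0.51, adjusted p = 0.011). Of 21 tested genes 5 were called higher and 2 lower.

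In the TGF-beta and BMP list, 29 genes were tested, 4 were called higher and 2 lower. The endothelial receptor Acvrl1, ALK1, was higher (1.35 ± 0.23, adjusted p = 0.0048) and its co-receptor Eng, endoglin, was lower (-1.45 ± 0.24, adjusted p = 0.0037). Id1, a target of BMP receptors, was at 3.97, 3.78 and 3.84 against 2.65, 2.62 and 2.33 (1.33 ± 0.21, adjusted p = 0.0033). Smad6, an inhibitor of the same pathway, was lower (-2.32 ± 0.33, adjusted p = 0.0018) and well above background on 1 of 3 EC-SP arrays. The receptor Tgfbr1 was higher by 1.51 ± 0.29 (adjusted p = 0.0086). The authors' deposited series table gave 4 lower calls in this list.

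Receptors for nucleotides, prostanoids and sphingolipids differed in both directions within each family. P2ry2, a receptor of ATP and UTP, was at 1.01, 1.13 and 1.63 in EC-SP and above background on 2 of 3 EC-MP arrays (4.98 ± 0.44, adjusted p = 0.00017), while P2ry1, a receptor of ADP, was at -1.02, -0.35 and 0.03 against 1.59, 2.78 and 0.92 (-2.21 ± 0.46, adjusted p = 0.012). The prostaglandin E2 receptor Ptger4 exceeded its EC-MP level at least 2.54-fold (adjusted p = 0.00016), while the thromboxane receptor Tbxa2r was lower (-1.89 ± 0.23, adjusted p = 0.00078). The sphingosine-1-phosphate receptor S1pr1 was higher (1.34 ± 0.20, adjusted p = 0.0026) and S1pr3 lower (-1.79 ± 0.39, adjusted p = 0.015). Of 18 tested genes 5 were called higher and 5 lower, and the lower calls were 2 without EC-SP replicate 1 and 3 without EC-SP replicate 2 or EC-MP replicate 2.

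Among ion channels, potassium channels gave most of the calls. Kcnn4, the calcium-activated channel KCa3.1 behind endothelial hyperpolarisation, was at 0.13, 0.19 and 0.30 in EC-SP and -2.38, -2.50 and -2.24 in EC-MP (2.59 ± 0.21, adjusted p = 0.00011). Kcnk1 exceeded its EC-MP level at least 5.35-fold (adjusted p = 0.00025), Kcnj2, an inward rectifier, at least 3.12-fold (adjusted p = 0.0017), and Kcnk5 1.77 ± 0.25 higher (adjusted p = 0.0017). The shear sensor Piezo1 was higher by 1.49 ± 0.26 (adjusted p = 0.0051) and the chloride channel Ano1 by 1.87 ± 0.21 (adjusted p = 0.0006). Of 29 tested channels 7 were called higher and 2 lower, and 6 and 2 of these held whichever array was left out. Of 14 tested peptide precursors and convertases, Pcsk5, a convertase, was at least 5.72-fold higher (adjusted p = 8.9e-05), Pthlh, the parathyroid hormone-like peptide, was higher (2.47 ± 0.43, adjusted p = 0.0051, 1 of 3 EC-MP arrays above background), and Nts, neurotensin, was lower (-2.18 ± 0.39, adjusted p = 0.0055).

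The NF-kB list held the largest share of higher calls among the signalling lists. NF-kB is a transcription factor family that switches on inflammatory genes, and many of its targets are inhibitors that end the response. Of 21 tested genes 11 were called higher (background 11.2%), and the other 10 were not called. The median was 1.04 against -0.01 for all genes. The count was 7 without EC-MP replicate 1, EC-MP replicate 2 or EC-SP replicate 3, and 6 without the filter on dim probes, and 6 of the genes stayed called whichever array was left out.

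Among the inhibitors, Tnfaip3, the ubiquitin-editing protein A20, was at 4.23, 4.04 and 4.78 in EC-SP and 1.81, 1.53 and 1.76 in EC-MP, 6.26-fold higher (2.65 ± 0.25, adjusted p = 0.00027). Its partner Tnip1 was at 2.14, 2.21 and 3.32 against 0.99, 1.08 and 1.38 (1.4 ± 0.33, adjusted p = 0.021), and Nfkbia, which holds NF-kB in the cytoplasm, at 5.45, 5.34 and 5.69 against 4.33, 4.04 and 4.83 (1.1 ± 0.26, adjusted p = 0.021). Each EC-SP array of these inhibitors was above each EC-MP array, while the groups did not overlap in 38% of all genes. Among the subunits, Rel was at -0.45, 0.09 and 0.24 against -1.48, -1.80 and -1.97 (1.71 ± 0.26, adjusted p = 0.0026) and Relb was higher by 1.04 ± 0.25 (adjusted p = 0.022). Rela (0.79 ± 0.36, adjusted p = 0.18, and 0.046 with the replicate block), Nfkb1 (0.42 ± 0.27, adjusted p = 0.34) and Nfkb2 (-0.04 ± 0.23, adjusted p = 0.95) were not called without the block. Among the adaptors and targets, the kinase Ripk2, which relays signals of the sensor Nod2, was higher by 1.99 ± 0.23 (adjusted p = 0.0007), Bcl3, a nuclear cofactor, by 2.06 ± 0.35 (adjusted p = 0.0043), and Tnfaip2 by 2.11 ± 0.33 (adjusted p = 0.0029).

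**Figure D4:**
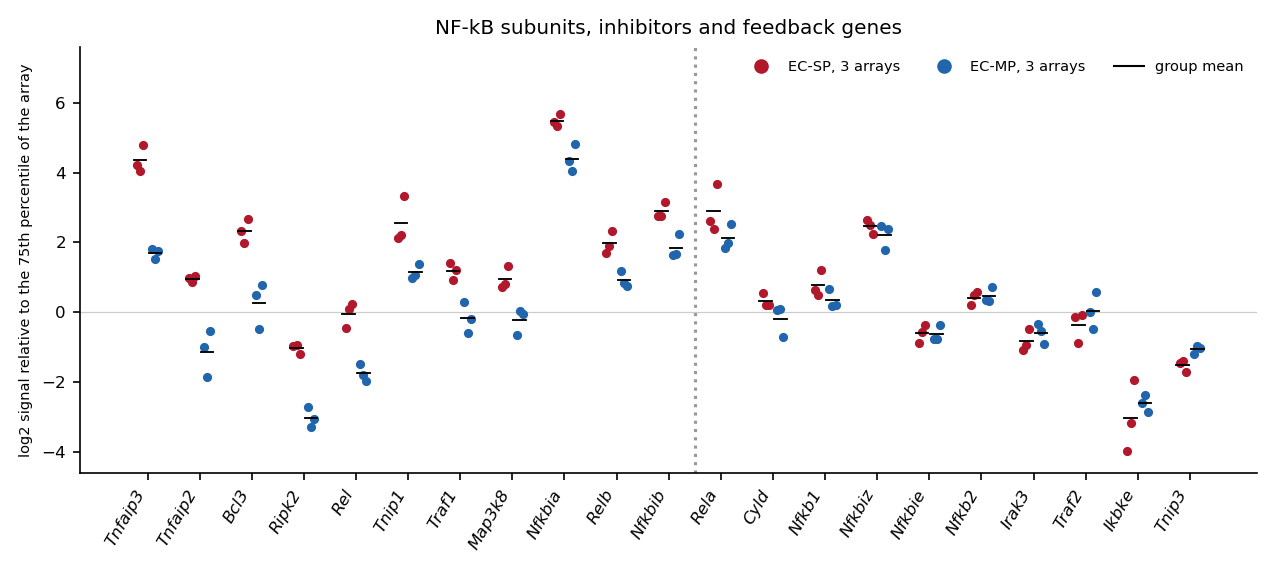
Levels of the 21 tested genes of the NF-kB list on each array, as log2 signal relative to the 75th percentile of the array (vertical axis); red points are EC-SP arrays, blue points EC-MP arrays and black lines group means. The 11 genes left of the dotted line were called higher in EC-SP, and the 10 to its right were not called. The groups of the 11 do not overlap, as in 38% of all genes, and this follows in part from the choice of called genes.

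The sequences before the transcription starts of 4 called genes are shown because NF-kB is known to act through the kappaB motif there. They are the 250 bases before the start, 5′ to 3′ on the gene's strand, from RefSeq on GRCm38.p6, with matches to the kappaB consensus on either strand in capitals, where overlapping matches run together. For Tnfaip3 the window of the second of its listed starts is shown, since the other held no match.
Tnfaip3, chr10:19015411-19015660, minus strand: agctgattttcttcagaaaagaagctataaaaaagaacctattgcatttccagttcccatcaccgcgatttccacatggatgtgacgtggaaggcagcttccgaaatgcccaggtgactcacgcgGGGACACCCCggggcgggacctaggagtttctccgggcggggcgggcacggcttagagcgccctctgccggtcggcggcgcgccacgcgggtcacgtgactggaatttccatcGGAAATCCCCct
Tnfaip2, chr12:111442411-111442660, plus strand: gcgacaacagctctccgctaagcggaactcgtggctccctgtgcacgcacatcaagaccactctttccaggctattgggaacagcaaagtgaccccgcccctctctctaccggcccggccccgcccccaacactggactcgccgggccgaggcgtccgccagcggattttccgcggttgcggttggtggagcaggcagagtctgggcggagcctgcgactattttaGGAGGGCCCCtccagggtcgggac
Rel, chr11:23770970-23771219, minus strand: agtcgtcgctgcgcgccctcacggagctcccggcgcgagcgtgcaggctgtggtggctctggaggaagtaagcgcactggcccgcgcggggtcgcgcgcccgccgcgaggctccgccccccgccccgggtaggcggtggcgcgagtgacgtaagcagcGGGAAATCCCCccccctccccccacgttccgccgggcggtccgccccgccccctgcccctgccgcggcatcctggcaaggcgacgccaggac
Nfkbia, chr12:55492648-55492897, minus strand: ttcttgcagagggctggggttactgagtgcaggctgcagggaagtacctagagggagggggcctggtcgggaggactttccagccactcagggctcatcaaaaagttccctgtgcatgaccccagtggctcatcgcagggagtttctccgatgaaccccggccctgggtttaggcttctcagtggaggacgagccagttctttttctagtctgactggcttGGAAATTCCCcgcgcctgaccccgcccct
In Tnfaip3 the nearest match begins 12 bases before the start, in Tnfaip2 24, in Rel 91 and in Nfkbia 29. Of the 11 genes called higher, 8 had a window, and 5 of these held a match in at least 1 window, as did 4 of the 8 uncalled genes with a window. The motif was found in 7.25% of all 32851 windows and in 10.3% of the 11265 tested genes with a window. Among the 1232 such genes called higher in EC-SP the share was 11.8%. A match is a description of the letters and not evidence of binding.

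Receptors upstream of NF-kB also differed. Tnfrsf1b, the second receptor of tumour necrosis factor, was at 2.34, 2.53 and 2.42 in EC-SP and -1.24, -1.90 and -1.06 in EC-MP, 14.2-fold higher (3.83 ± 0.26, adjusted p = 5.5e-05). Nod2, a sensor of bacterial cell wall fragments, was at 0.88, 0.84 and 1.38 against -1.94, -2.64 and -1.90 (3.19 ± 0.28, adjusted p = 0.00018). Cd14, the co-receptor of bacterial lipopolysaccharide, was at 0.37, 0.09 and 0.68 against -2.47, -1.80 and -2.28 (2.56 ± 0.26, adjusted p = 0.00038). The adaptor Myd88 (1.20 ± 0.23, adjusted p = 0.0082), the receptor Tlr2 (1.59 ± 0.28, adjusted p = 0.0055) and the DNA sensor adaptor Sting1 (1.4 ± 0.24, adjusted p = 0.0047) were higher, and Lbp, which carries lipopolysaccharide to Cd14, was lower (-1.43 ± 0.26, adjusted p = 0.0064). The 5 higher and 1 lower calls among 17 tested innate sensing genes held whichever array was left out. Il33, an alarmin kept in endothelial nuclei, was lower (-1.27 ± 0.22, adjusted p = 0.0052), and Socs2, a feedback inhibitor of cytokine signals, was higher (1.48 ± 0.22, adjusted p = 0.0025).

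Among the complement genes, 2 membrane-bound inhibitors were lower in EC-SP. Cd55, which speeds the decay of the convertases, was at -0.07, 0.14 and 0.44 in EC-SP and 3.62, 3.75 and 3.06 in EC-MP, 9.89-fold lower (adjusted p = 0.00011). Cd59a, which blocks the membrane pore, was lower by a log2 difference of -1.51 ± 0.24 (adjusted p = 0.003). Serping1, the inhibitor of C1, was an exception and was higher (1.05 ± 0.26, adjusted p = 0.025). The protease C1s1 (1.31 ± 0.20, adjusted p = 0.0027) and Cd93 (1.51 ± 0.25, adjusted p = 0.0036) were also higher. Of 15 tested genes 4 were called higher and 5 lower, and 2 higher without EC-SP replicate 1, EC-SP replicate 3 or EC-MP replicate 2.

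On the cell surface, genes that build ligands of L-selectin, the receptor that brings lymphocytes out of the blood, were higher where they were called. Gcnt1, which starts the branched O-glycan core, was at 0.19, 0.67 and 0.18 in EC-SP and above background on 2 of 3 EC-MP arrays (3.52 ± 0.44, adjusted p = 0.00099), and Fut7, the fucosyltransferase of these ligands, was higher by 2.47 ± 0.36 (adjusted p = 0.0021, 2 of 3 EC-MP arrays above background). The carrier Podxl was higher by 1.48 ± 0.28 (adjusted p = 0.0072) and the sialyltransferase St3gal6 by 1.22 ± 0.24 (adjusted p = 0.0092). Tspan8, a tetraspanin on the list that is also known from epithelium, was at -0.11, -0.43 and -0.92 against -3.16, -3.53 and -3.10 (2.78 ± 0.27, adjusted p = 0.00028), beside the bile duct markers given above, whose part was not tested. These 5 of 17 genes were called whichever array was left out, and 1 other was called lower without EC-SP replicate 3.

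Heparan sulfate genes differed in both directions. Sulf1, which strips sulfate from the chains, was at 2.41, 2.76 and 3.14 in EC-SP and -0.62, 0.38 and 1.00 in EC-MP (2.52 ± 0.40, adjusted p = 0.0031). Hpse, heparanase, which cuts the chains, was lower (-2.80 ± 0.32, adjusted p = 0.00065), as was Gpc1, a membrane-anchored carrier of the chains (-3.55 ± 0.37, adjusted p = 0.00042, 2 of 3 EC-SP arrays above background). Of 22 tested genes 5 were called higher and 3 lower. The higher calls were 2 without EC-SP replicate 3 and 3 without EC-SP replicate 1, EC-SP replicate 2, EC-MP replicate 1 or EC-MP replicate 2, and the replicate block called 5 lower. Of the hyaluronan genes, the synthase Has3 was higher (1.59 ± 0.33, adjusted p = 0.012) and the hyaluronidase Hyal2 lower (-2.08 ± 0.24, adjusted p = 0.00063), and Dse, which makes dermatan sulfate, was lower (-3.16 ± 0.38, adjusted p = 0.00081, 1 of 3 EC-SP arrays above background).

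Calcium-binding S100 proteins and annexins, which act at membranes, were higher in most of the called cases. S100a6 was at 6.16, 5.39 and 5.31 in EC-SP and 3.15, 2.45 and 2.91 in EC-MP (2.78 ± 0.30, adjusted p = 0.00048). S100a4, known from motile cells, was at 2.36, 1.41 and 2.00 against -1.58, -2.76 and -0.92 (3.68 ± 0.45, adjusted p = 0.00087), and Anxa1 was higher by 2.42 ± 0.32 (adjusted p = 0.0013). S100a1 was lower (-1.65 ± 0.35, adjusted p = 0.013). Of 16 tested genes 7 were called higher and 1 lower, and 4 higher without EC-SP replicate 1, EC-SP replicate 2, EC-MP replicate 1 or EC-MP replicate 2.

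Of the cell cycle brakes and proliferation genes that were called, all but 1 were higher in EC-SP. Btg1, an antiproliferative factor of resting cells, was at 5.50, 5.76 and 5.89 in EC-SP and 3.18, 3.33 and 3.27 in EC-MP (2.46 ± 0.21, adjusted p = 0.00017), and its relative Tob1 at 3.01, 2.87 and 2.69 against 1.07, 1.32 and 1.01 (1.72 ± 0.22, adjusted p = 0.00098). Of the replication genes, Mcm7 (1.67 ± 0.27, adjusted p = 0.0033) and Pcna (1.43 ± 0.25, adjusted p = 0.0052) were higher as well. Mcm4 was also called higher, while Mcm2 (0.16), Mcm3 (0.10), Mcm5 (-0.62) and Mcm6 (0.02) were not called. For Btg1, Tob1, Mcm7 and Pcna the groups did not overlap, as in 38% of all genes. Of 18 tested brakes 6 were called higher and 1 lower, the lower one, Cdkn2b, with EC-SP replicate 1 left out but not with any of the other 5. Of 20 tested proliferation genes 5 were called higher, and 3 without EC-MP replicate 2. Pmaip1, the BH3 protein NOXA that promotes cell death, was at 0.19, 0.46 and 0.44 against -2.48, -2.36 and -1.67 (2.53 ± 0.27, adjusted p = 0.00042), and Mcl1, the survival protein it binds, was also higher (1.06 ± 0.21, adjusted p = 0.0096). Of 18 tested apoptosis genes 4 were called higher and 3 lower. The lower ones were Bid (-1.32 ± 0.31, adjusted p = 0.019) and Bak1 (-1.13 ± 0.27, adjusted p = 0.02), which promote cell death, and Xiap, which blocks caspases (-0.86 ± 0.24, adjusted p = 0.042, and 0.054 with the replicate block). The higher calls were 2 without EC-MP replicate 3, and the lower calls 0 without EC-MP replicate 1 and 1 without EC-SP replicate 2, EC-MP replicate 2 or EC-MP replicate 3.

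Among transcription regulators, Nfil3, a repressor linked to the clock and to lymphoid cells, was at 3.32, 2.89 and 3.34 in EC-SP and -0.20, -2.77 and -0.36 in EC-MP (4.29 ± 0.60, adjusted p = 0.0016). EC-MP replicate 2 stood well below the other EC-MP arrays for this gene. Bhlhe40, another clock repressor, was higher by 1.68 ± 0.28 (adjusted p = 0.0041). Of 18 tested clock genes 3 were called higher, 5 with the replicate block and 8 without EC-MP replicate 2. The nuclear receptor Esrrb lay at least 6.82-fold below EC-MP (adjusted p = 0.00081), and Nr1h4, the bile acid receptor FXR, was lower (-2.01 ± 0.35, adjusted p = 0.0049). Kdm6b, a demethylase of histone H3, was at 3.41, 3.67 and 3.28 against 1.17, 1.73 and 1.37 (2.03 ± 0.24, adjusted p = 0.00072), and Ezh2, the methylase of the same mark, was also higher (1.57 ± 0.26, adjusted p = 0.0037, 2 of 3 EC-MP arrays above background).

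Hox genes, which set position along the body axis, were lower more often than higher. Hoxd9 was at -0.45, -0.29 and -0.22 in EC-SP and 1.1, 0.96 and 1.28 in EC-MP (-1.43 ± 0.21, adjusted p = 0.0023), and Hoxb5 at -0.91, -1.04 and -0.05 against 1.38, 1.15 and 0.84 (-1.79 ± 0.30, adjusted p = 0.0046). Hoxb4, a neighbour of Hoxb5 in the same cluster, was at 1.96, 1.57 and 1.71 against 0.49, 0.37 and 0.29 and so differed in the opposite direction (1.36 ± 0.22, adjusted p = 0.0032). Of 17 tested genes 5 were called lower (background 8.29%) and 2 higher, and 1 higher without any single array, because Hoxa3 was then not called. The list median was -0.33.

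The antibody sort gave a second comparison, on arrays that share no sample with the first. The same contrast of contrasts was fitted for 31 genes, the 24 with the largest differences and 7 genes of the sort and cell type. CD157+CD200+ minus CD157-CD200- had the same sign as EC-SP minus EC-MP for 21 of the 24 genes. The signs were the same for 82.3% of all features called in EC-SP minus EC-MP and for 67.4% of all features. The size of the difference was called unequal for 7 of the 31 genes, against 5.05% of all 25060 features tested, and for 13 with the replicate block. Since 24 of the 31 were chosen for the size of 1 of the differences compared, nothing is read from this count. The genes with unequal differences are described in the closing section.

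**Figure D5:**
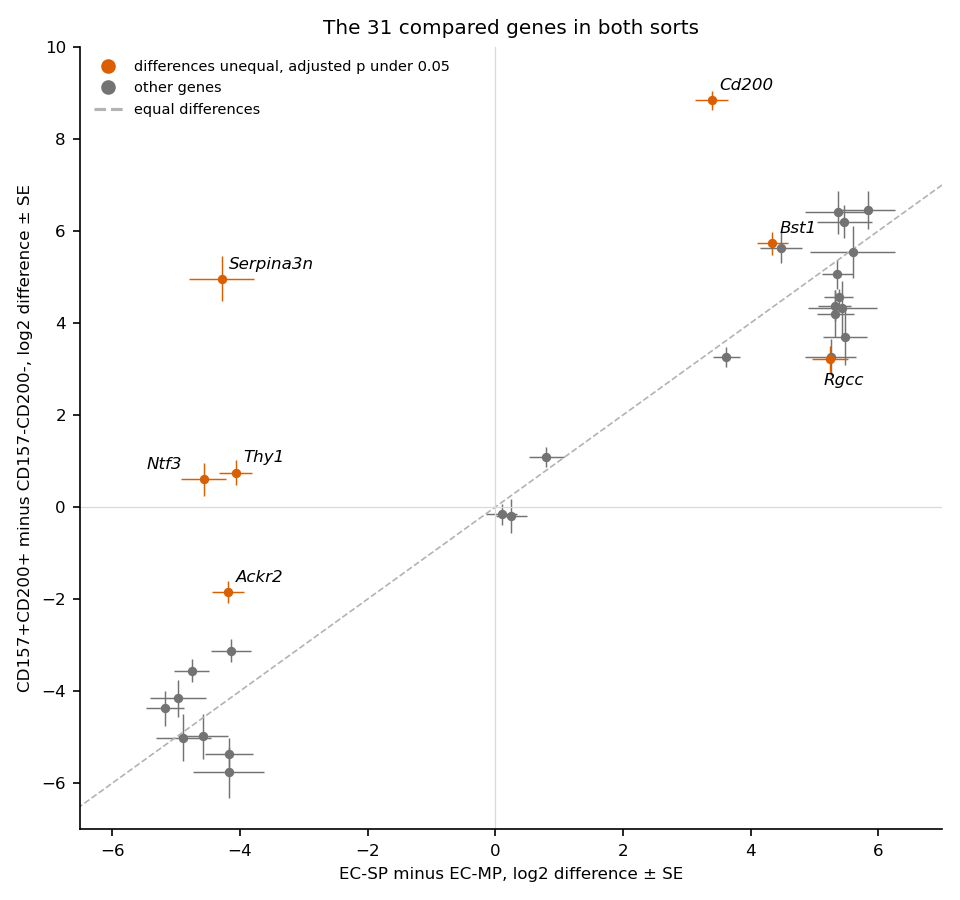
The 31 genes by their log2 difference in EC-SP minus EC-MP (horizontal axis) and in CD157+CD200+ minus CD157-CD200- (vertical axis), with standard errors; orange genes have unequal differences at an adjusted p under 0.05 and the dashed line marks equal differences. The values are as fitted, also for genes not above background in a group; Serpina3n lies at -4.29 and 4.96, and Ntf3 and Thy1 lie near 0 on the vertical axis at 0.60 and 0.75.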

How the data were processed

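Liver endothelial RNA was measured on 1-colour Agilent arrays, of which 6 of 15 entered the main comparison. The deposited scanner files hold the processed signal as an intensity, extracted per the file headers with Agilent Feature Extraction 10.10.1.1 on these 6 arrays and 11.5.1.1 on the other 9. The deposited series table holds intensity too, equal to the scanner signal times a constant for each array (5.46 to 10.1). Its column medians were 257 to 335 on the 6 arrays.

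Outlier spots were set to missing (110 to 188 an array), spots of a probe were averaged, and log2 intensity minus the log2 75th percentile of the array's non-control spots was taken. Features were kept where EC-SP, EC-MP or both had all 3 arrays well above background, and the brightest probe stood for a gene. Gene symbols came from RefSeq, matched through the accessions of the deposited annotation, for 28059 of 55681 probes. The number of arrays limits the precision. The groups were compared with limma 3.58.1 in R 4.3.3 (lmFit, eBayes, Benjamini-Hochberg over all features), and the script was tested on simulated data. There, 14% of the features changed by a log2 of 1 were called, and 80% of those changed by 2. Far fewer features were changed in the simulation than were called here, so these shares do not carry over directly. A gene that was not called may still differ. The antibody sort entered through a contrast of contrasts in 1 fit of 15 arrays. For a gene not above background on any array of a group, "at least" sets the brighter group's mean against, on each array, the higher of the gene's own signal and the lowest signal among probes well above background.

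Replicate number and slide coincide, and each slide of the main comparison holds both populations. Deviations from the group means correlated at 0.27, 0.29 and 0.33 for the same number and at -0.20 to -0.07 for different numbers, so the numbers were taken as pairs and fitted as a block in an alternative. Other alternatives were normexp, quantile normalization, other scalings, other filters on dim probes, the median over probes, and leaving out each array.

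The genes and lists were chosen with earlier results of these data known. Named genes were the sort genes, the 12 called genes with the largest difference in each direction after leaving out predicted transcripts and 96 genes described elsewhere, and of each list up to 2 called members per direction with the lowest adjusted p. Further list members were named after their values were seen. Some list members are counted but not reported by name here.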

Additional observations from a re-analysis of the deposited data

Results flagged for a closer look

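For 7 of 31 genes the difference between EC-SP and EC-MP was unequal to that between CD157+CD200+ and CD157-CD200- by a limma contrast of contrasts. The 2 sorts were measured on separate sets of arrays, with another version of the extraction software, so set and sort cannot be told apart for what does not cancel within a set. Where a group was not well above background, the fitted differences below rest on signals near background and their size is not a measurement.

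Serpina3n, a protease inhibitor, had fitted differences of opposite sign, -4.29 in EC-SP minus EC-MP and 4.96 in the antibody sort (difference -9.25 ± 0.69, adjusted p = 2e-06), and the measured bound in the antibody sort was a log2 difference of at least 3.34. It was at -0.45, -0.16 and -1.08 in CD157+CD200+ cells, and it was not well above background on any CD157-CD200- array or on 2 of 3 EC-SP arrays. Thy1 was lower in EC-SP but not in CD157+CD200+ cells, which were at 1.33, 0.97 and 1.65 against 0.49, 0.17 and 1.03 (difference -4.82 ± 0.39, adjusted p = 4.5e-06). Ntf3 was at -1.75, -1.09 and -1.92 in CD157+CD200+ cells against -1.81, -2.47 and -2.27, and not well above background in EC-SP, where the bound was at least 6.52-fold below EC-MP (fitted difference -5.17 ± 0.51, adjusted p = 2.7e-05).

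Ackr2 was lower in both sorts, by -4.19 and by -1.85 (difference -2.34 ± 0.33, adjusted p = 0.00075). Rgcc was higher in both, by 5.25 and 3.21 (difference 2.04 ± 0.41, adjusted p = 0.0092). The antibody sort selected cells by CD157 and CD200, the products of Bst1 and Cd200. Large differences of these genes in it follow from the sort, and nothing is read from their unequal differences. Cd200 differed by 3.39 in EC-SP minus EC-MP and by a log2 difference of at least 8.32 in the antibody sort, where its probe was not well above background on any CD157-CD200- array (fitted 8.84, fitted difference -5.45 ± 0.29, adjusted p = 2e-07). Bst1 differed by 4.34 and 5.73 (difference -1.39 ± 0.35, adjusted p = 0.034), and this call was lost in 7 of 11 alternatives, with adjusted p from 0.017 to 0.80: it was lost with normexp, with quantile normalization, without the filter on dim probes, and without any EC-SP array or EC-MP replicate 1.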

How the results depend on the processing

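None of the 156 called named genes reversed its direction in the 14 alternatives, and 127 of them were called in every alternative that tested them. Of these, 88 were tested in all 14, and 39 had no value in 1, the filter that keeps only probes well above background on all 6 arrays. These counts include genes not reported here and leave out list members named after their values were seen. Reversals were not counted for named genes that were not called. Without the filter on dim probes 2261 features were called in place of 3962, and leaving out 1 array gave 2714 to 3321. The replicate block gave 5224. Among the genes named in the report, the calls it changed included those of Ndufb8, Rela, Pecam1 and Xiap. The block changed further list counts, and not all of them are given here. It called 3 ribosomal protein genes higher in place of 1, 6 chromatin regulators in place of 3, and 2 endothelial and 2 stellate genes in place of 1 each. Higher calls were 8 in place of 6 among the cell cycle brakes and 9 in place of 7 among the ion channels. Lower calls were 6 in place of 4 among the lysosomal genes and 4 in place of 5 among the Hox genes. In addition, 1 proliferation gene and 1 L-selectin ligand gene were called lower in place of 0. For the unequal differences between the sorts the block gave 3192 features in place of 1265, and leaving out 1 array 954 to 1179. There 41.1% were higher, and 29.0% with the series table, 54.8% with normexp. Keeping only probes well above background on all 6 arrays removed genes measured in 1 population, so that 1 WNT gene was called higher in place of 5 and 5 bile duct genes in place of 8. Normexp on the mean signal was not run, because the files used here lack that column; the median signal was used instead, chosen after seeing the data. Genes above background on no array of a group have only bounds, and those above it on 1 or 2 of 3 arrays have fitted differences that rest partly on signals near background.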

Other observations

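Of 194 listed genes with more than 1 tested probe, 34 had probes of opposite sign, and 2 of these were called. For Cdkn1a, a cell cycle inhibitor, the brightest probe differed by 2.01 between EC-SP and EC-MP and another by -0.96. For Dnaja1, a heat shock co-chaperone, the values were 0.99 and -0.58. Vegfa, the main endothelial growth factor, was not called and had probes at -0.18 and 1.06. Tnfaip6, which modifies hyaluronan, had probes at -0.17 and 2.81. Probes of the same sign also differed in size. For Rarb (-3.35 to -0.53), Btg1 (0.95 to 2.46) and Fzd5 (0.66 to 1.48) the report gives the larger difference. For Rara (1.63 to 2.41) and S100a4 (3.68 to 5.6) it gives the smaller. These genes were picked after their values were seen.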
